A study of Mus musculus with 6 samples.

Results

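NF-kB is a family of transcription factors made of paired subunits, and 10 genes of this system were followed in the gut epithelium of young and aged mice. The set holds 4 subunit genes (Nfkb1, Nfkb2, Rela and Relb), 3 genes of regulators that are themselves induced (Nfkbia, Nfkbiz and Tnfaip3) and 3 further target genes (Tnfaip2, Icam1 and Birc3). They were taken by gene symbol from a table of 46078 genes, where each symbol matched 1 row, and all 10 passed the filter on low counts that left 14923 genes for testing. The samples came from untreated C57BL/6JRj mice, 3 young (2 to 3 months) and 3 aged (20 to 22 months), with no genetic change named. Cells of the small intestine (the proximal part, by the design text) were sorted as positive for the epithelial protein EpCam and negative for the leukocyte protein CD45, and poly(A) RNA was sequenced from a stranded library kit. The sort takes all epithelial types together, so fewer cells of a type and less RNA per cell cannot be told apart. The labels do not state that each library came from its own mouse. The design text names 3 mice per age, and p-values measure the spread between these libraries.

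In resting cells the subunits are held in the cytoplasm by IkB proteins such as the product of Nfkbia. Signals from tumour necrosis factor, interleukin 1 or microbial receptors lead to destruction of IkB and entry of pairs such as the Rela and Nfkb1 products into the nucleus, while an alternative route through the lymphotoxin beta receptor acts on the Nfkb2 and Relb products. The active factors switch on genes that shut the pathway down again, among them Nfkbia and Tnfaip3 (which encodes the ubiquitin-editing enzyme A20), so the RNA of these genes is commonly read as a trace of recent activity. In the gut epithelium the pathway is known for its part in barrier defence and in survival of the cells.

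The libraries held between 41479573 and 58989166 counts. A gene with 0 counts could lie at up to 3 counts, or between 0.0507 and 0.072 CPM (counts relative to the library's total, scaled with TMM factors), a limit that covers counting error only. Ptprc, the CD45 gene, lay between 0.168 and 0.287 CPM, and Epcam at 1656 ± 18.3 CPM (young) and 1510.4 ± 11.3 CPM (aged; mean ± SD of 3 libraries each). The mitochondrial share of counts ran from 1.48 to 3.69% in young and from 1.54 to 2.88% in aged libraries.

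Promoter sequence is shown for the members whose window before the start held a match to the kappaB consensus, the element that NF-kB binds, and for Icam1, the member with the widest age difference. RefSeq's promoter table (GRCm38.p6) held 7 of the 10 members in 10 windows, and not Nfkb1, Relb and Nfkbiz. The 250 bases before the first listed start are printed 5′ to 3′ on the gene's strand, and capitals mark kappaB matches on either strand in the first 3 and the match to the GAS element, TTCNNNGAA, in Icam1. The GAS element is bound by STAT factors.
Nfkb2, chr19:46304487-46304736, plus strand: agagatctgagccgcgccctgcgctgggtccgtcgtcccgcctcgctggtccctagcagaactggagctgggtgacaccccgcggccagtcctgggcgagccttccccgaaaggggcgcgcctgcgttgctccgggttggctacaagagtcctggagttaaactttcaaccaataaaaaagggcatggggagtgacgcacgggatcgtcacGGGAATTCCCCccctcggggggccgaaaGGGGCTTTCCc
Nfkbia, chr12:55492648-55492897, minus strand: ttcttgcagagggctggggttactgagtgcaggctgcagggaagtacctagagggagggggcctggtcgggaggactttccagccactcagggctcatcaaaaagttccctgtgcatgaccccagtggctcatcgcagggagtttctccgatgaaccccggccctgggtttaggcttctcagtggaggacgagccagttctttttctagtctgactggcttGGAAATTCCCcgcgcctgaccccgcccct
Tnfaip3, chr10:19015411-19015660, minus strand: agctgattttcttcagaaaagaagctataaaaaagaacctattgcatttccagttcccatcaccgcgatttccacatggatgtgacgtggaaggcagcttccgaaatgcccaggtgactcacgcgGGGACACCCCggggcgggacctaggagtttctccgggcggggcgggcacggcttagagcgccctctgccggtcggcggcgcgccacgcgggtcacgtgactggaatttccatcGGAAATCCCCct
Icam1, chr9:21015690-21015939, plus strand: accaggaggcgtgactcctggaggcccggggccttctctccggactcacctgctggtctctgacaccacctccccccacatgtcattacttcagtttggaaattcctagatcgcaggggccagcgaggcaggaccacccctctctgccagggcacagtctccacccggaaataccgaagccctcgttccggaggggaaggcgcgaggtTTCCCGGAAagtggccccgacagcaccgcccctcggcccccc

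In Nfkb2 the first run in capitals holds 2 overlapping matches, GGGAATTCCC (a match on both strands, 39 bases before the start) and GGGGAATTCC on the other strand 1 base further on, and the second run is GGGGCTTTCC, 11 bases before the start. The other 2 Nfkb2 windows, at other starts, held kappaB matches as well, 1 of them a run that lay in both windows. Nfkbia had GGGAATTTCC on the opposite strand 29 bases before its start. Tnfaip3 had GGGACACCCC on its own strand 125 bases and GGGGATTTCC on the opposite strand 12 bases before its start. The match in Icam1, TTCCCGGAA, lay 42 bases before the start. This RefSeq start lies before the GENCODE start of the gene, at 21015985, and the bases just after it were found in no GENCODE transcript of Icam1. The distance therefore holds for the RefSeq start only. The bases after the start of the second Nfkb2 window were likewise not found in a transcript of Nfkb2. Nfkb2 held a GAS match as well, 148 bases before its first start, which overlapped none of its kappaB matches. Of the 10 member windows, 5 had a kappaB match in the full 300 bases, where 4.51% of all 32851 windows had one. A GAS match lay in 2 of the 10 (8.3% of all windows). Counted by gene, 3 of the 7 members in the table had a kappaB match and 2 a GAS match. Nfkb2 and Tnfaip3 had more than 1 window and so more room for a match. The core of the interferon-stimulated response element, GAAA, any 2 bases and GAAA again, matched 0 of the 10 member windows and 3.44% of all windows. A match is a run of letters and not a binding site, and a window without one says only that these letters are not in it.

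Levels between genes were compared per kb of merged exon length (GENCODE M21, GRCm38). Nfkbia, the gene of IkB alpha, was the most abundant member at 146 ± 8.87 CPM per kb (young) and 165 ± 39.6 CPM per kb (aged), each the mean ± SD of 3 libraries. Nfkbiz followed at 36.5 ± 3.15 CPM per kb (young) and 42.1 ± 11.6 CPM per kb (aged), and Rela at 24.2 ± 1.03 CPM per kb (young) and 27.7 ± 1.83 CPM per kb (aged). The ranges of these 3 over the 6 libraries did not meet. Relb (14.9 to 20.3 CPM per kb), Nfkb2 (13.6 to 20.9 CPM per kb), and Tnfaip3 (9.19 to 21.8 CPM per kb) overlapped and could not be put in order, and Nfkb1 (11.6 to 12.8 CPM per kb) lay within the range of Tnfaip3. Birc3 (6.78 to 9.30 CPM per kb) met Tnfaip3 only at the lower end of its range. Icam1 and Tnfaip2 stood apart at the bottom, at means of 1.32 and 0.114 CPM per kb. Nfkb1 has 12061 bases of merged exons but a longest transcript of 4149 bases, and with the latter length it moved from place 7 to place 3, at 35.9 CPM per kb.

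**Figure D1:**
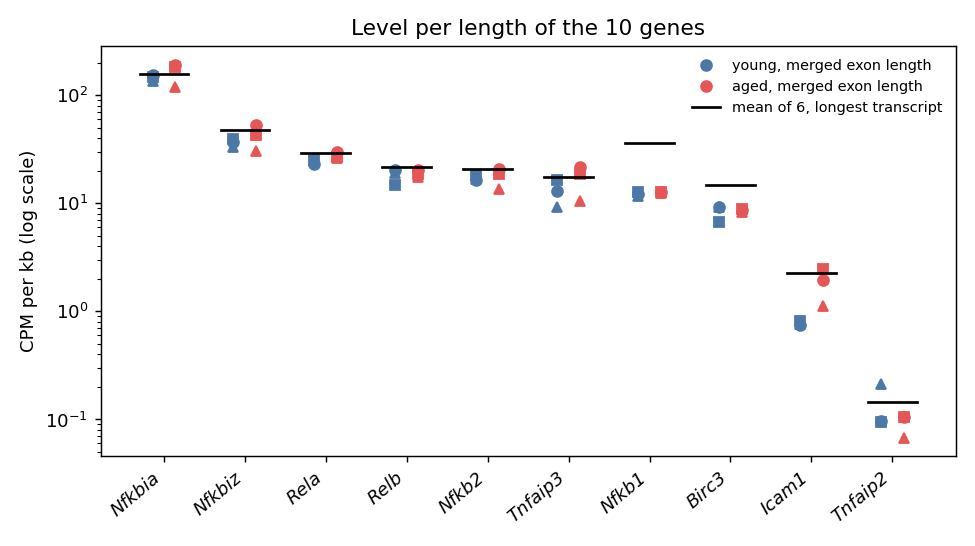
Level of each member in CPM per kb on a log axis, with 3 young (blue) and 3 aged (red) libraries as points by merged exon length and a black line at the mean of 6 libraries by longest transcript. Nfkbia lies highest and Tnfaip2 lowest by both lengths, and the line of Nfkb1 lies well above its points.

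Aged and young epithelium were compared in a study whose title speaks of inflammaging, the low-grade inflammation of old age. Icam1 stood apart from the other members with a mean more than 2-fold higher in aged libraries, Rela was higher by a small margin, and the 8 others overlapped between the ages. Of the 10 members, 0 passed the test over all genes (edgeR's quasi-likelihood test at a Benjamini-Hochberg adjusted p under 0.05), where 0.623% of all tested genes were called higher and 0.784% lower, 1.41% in all. At an unadjusted p below 0.05 there were 2 members, Icam1 and Rela, where 9.23% of all tested genes (1377) lay below it. These were also the 2 whose age groups did not overlap with the aged libraries higher, against 6.3% of all tested genes. DESeq2 called 1 member, Icam1, and limma-voom 0. The fitted log2 fold changes (aged over young) were above 0 in 9 of 10 members, with a median of 0.12, beside a median of 0.0065 and 51.8% above 0 over all tested genes.

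**Figure D2:**
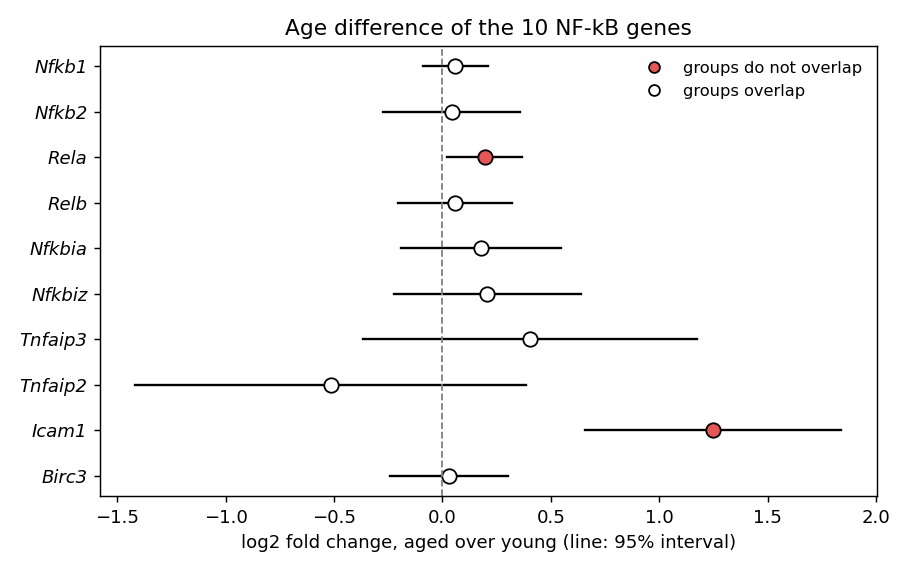
Log2 fold change of each member in aged over young libraries (n = 3 each), with 95% intervals from the quasi-likelihood fit. Filled points are the 2 members whose groups do not overlap, Icam1 at 1.25 and Rela at 0.19; 8 of the 10 intervals cross 0.

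Icam1 (chromosome 9, 21015985 to 21028817, GRCm38) encodes an adhesion molecule of the immunoglobulin superfamily that binds leukocyte integrins. It held 3.28, 3.55 and 3.36 CPM in young replicates 1 to 3 and 8.55, 10.8 and 4.90 CPM in aged replicates 1 to 3. The young libraries were close together, the aged ones were all higher, and aged replicate 3 was the lowest of them. The fitted log2 fold change was 1.25 ± 0.26 (SE), or 2.38-fold with a 95% interval of 1.58 to 3.58, and missed the threshold (adjusted p = 0.0615, edgeR quasi-likelihood test). Without aged replicate 3 it was 1.51 (adjusted p = 0.00495) and without aged replicate 2 0.98 (adjusted p = 0.207), in a range of adjusted p over the alternatives from 0.000147 to 0.237. The counts behind it were 140 to 210 in young and 275 to 494 in aged libraries. Its exons overlap those of Gm47079 on the other strand, a gene not used here.

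Myeloid cells and endothelium also carry Icam1, so their markers are given beside it. The genes listed for macrophages, dendritic cells and neutrophils summed to 44.8 to 48.5 CPM in the young and 55.4 to 76.0 CPM in the aged libraries. Of its 16 genes 7 were tested, and 1 rose, the integrin gene Itgam, from 12.6 ± 0.681 to 21.6 ± 1.18 CPM (SD, n = 3 each, edgeR adjusted p = 0.00726). The 7 had a median log2 fold change of 0.53 with 6 above 0, and the groups did not overlap in 2 with the aged higher (Itgam and Fcer1g, the latter at 0.144 to 0.486 CPM over the 6 libraries) and in 1 with the aged lower (Lyz2, 2.99 ± 0.919 CPM in the young and 2.07 ± 0.116 CPM in the aged libraries). Over all tested genes 0.623% were called higher and 51.8% had a log2 fold change above 0. The groups did not overlap in 6.3% of them with the aged higher and in 7.49% with the aged lower. Cd68 lay between 9.39 and 17.2 CPM and C1qa between 0.137 and 0.768 CPM, both with overlap. Its neutrophil genes S100a8, S100a9 and Ly6g held 0 counts in every library, and the macrophage genes Adgre1 and Csf1r reached at most 0.0227 and 0.120 CPM. Cd14, the most abundant gene of the list, stood at 18.6 ± 3.16 CPM (young) and 27.2 ± 7.16 CPM (aged). The endothelial list summed to 4.08 to 6.12 CPM in the young and 5.37 to 5.62 CPM in the aged libraries, with Cdh5 and Kdr at 0 counts, and the general leukocyte list to 38.0 to 56.5 and 46.9 to 66.4 CPM, most of it Lcp1. Of the T and NK cell genes 8 of 15 were tested and 1 rose, the integrin gene Itgae, from 1.16 ± 0.214 to 3.40 ± 0.582 CPM (edgeR adjusted p = 0.0129). The 8 had a median log2 fold change of 0.362 with 7 above 0. The list summed to 5.09 to 6.44 CPM in the young and 5.29 to 10.8 CPM in the aged libraries. The T cell receptor gene Trac stood at 0.317 ± 0.0993 CPM (young) and 0.254 ± 0.222 CPM (aged). Cd3d, Cd3e and Cd3g were below the filter and overlapped between the ages. Of the B and plasma cell genes 3 of 10 were tested with 0 called by the edgeR test. The part of such cells in the Icam1 values was not tested.

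Among the subunits, Rela (chromosome 19, 5637483 to 5648130), the gene of the transactivating subunit p65, held 70.7, 76.8 and 75.2 CPM in the young and 91.3, 83.1 and 80.5 CPM in the aged libraries. All aged libraries lay above all young ones, by a narrow margin. The difference was 1.14-fold with a 95% interval of 1.02 to 1.29, and it was not called (log2 fold change 0.19 ± 0.076, SE, edgeR adjusted p = 0.428).

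Nfkb1 (chromosome 3, 135584655 to 135691547), which encodes the p105 precursor of p50, varied little in both groups. Its young libraries held 146, 152 and 139.5 CPM and its aged libraries 154, 153 and 149 CPM. The groups overlapped, and the fold of 1.04 had an interval of 0.939 to 1.16 (edgeR adjusted p = 0.884).

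Nfkb2 (chromosome 19, 46304320 to 46312385) encodes p100, the precursor of p52 and partner of the Relb product. It held 75.5, 82.9 and 77.5 CPM in the young and 95.7, 84.9 and 62.3 CPM in the aged libraries. Aged replicate 1 was above every young library and aged replicate 3 below every young library, so the mean fold of 1.03 (interval 0.826 to 1.28, edgeR adjusted p = 0.972) covers aged libraries on both sides of the young ones. Its exons overlap those of 2 genes on the other strand, AC114539.1, which was not used here, and Psd, which held 59 to 76 counts against 3227 to 4903 for Nfkb2.

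Relb (chromosome 7, 19606217 to 19629438), the subunit of the alternative route, held 79.0, 57.8 and 73.7 CPM in the young and 78.5, 72.7 and 68.0 CPM in the aged libraries. The groups overlapped, with young replicate 2 the lowest of all 6 (fold 1.04, interval 0.868 to 1.25, edgeR adjusted p = 0.948). For the 3 subunit genes other than Rela, a missed threshold does not show equal levels, and the intervals bound the change at 0.826- to 1.28-fold at their widest.

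The 3 induced regulator genes had higher means in aged libraries, a wide spread there and 0 calls. Nfkbia (chromosome 12, 55489410 to 55492647) held 246, 239.6 and 219 CPM in the young and 309, 296 and 192 CPM in the aged libraries. Aged replicates 1 and 2 were above and aged replicate 3 below every young library. The fold was 1.13 with an interval of 0.876 to 1.46 (edgeR adjusted p = 0.845).

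Nfkbiz (chromosome 16, 55811375 to 55838899) encodes IkB zeta, a nuclear member of the IkB family that acts on a subset of NF-kB target genes. It held 186, 197 and 166 CPM in the young and 268, 215 and 151 CPM in the aged libraries. The order was that of Nfkbia in the aged group, with replicates 1 and 2 above and replicate 3 below all young libraries (fold 1.15, interval 0.858 to 1.55, edgeR adjusted p = 0.844). Without aged replicate 1 its log2 fold change was 0.0027.

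Tnfaip3 (chromosome 10, 19000910 to 19015657) held 93.2, 119 and 66.4 CPM in the young and 157, 135 and 76.3 CPM in the aged libraries. Aged replicates 1 and 2 were the highest of the 6, aged replicate 3 was second lowest, and the young libraries were themselves spread widely. The fold was 1.32 with an interval of 0.775 to 2.26, so that a change of over 2-fold lies within the error (log2 fold change 0.40 ± 0.32, SE, edgeR adjusted p = 0.827). With 1 surrogate variable in the model its log2 fold change was 0.043, and those of Nfkbia and Nfkbiz were 0.016 and 0.02.

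**Figure D3:**
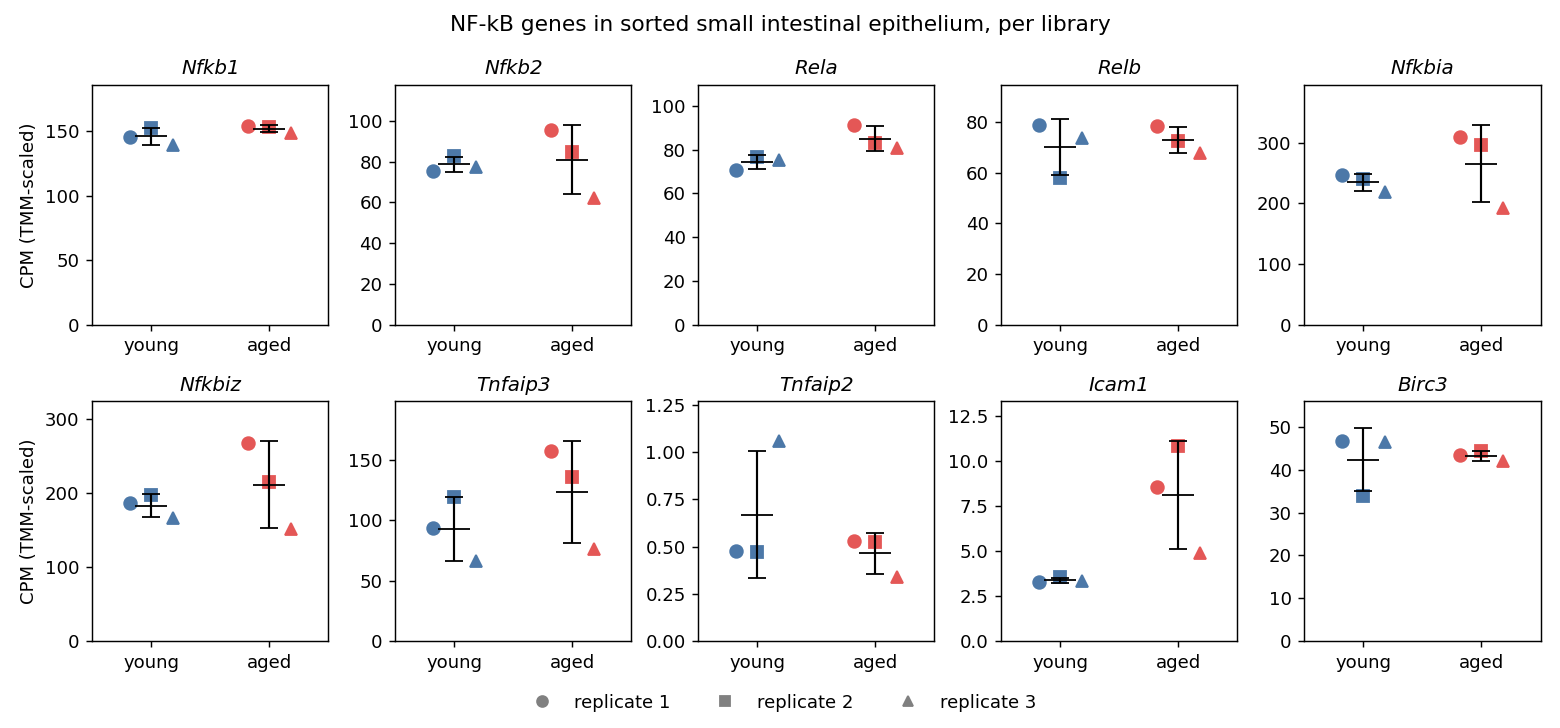
CPM of each member in each library on axes that start at 0, with young in blue, aged in red, replicates by marker shape (the labels state no pairing of young with aged), and bars at the mean ± SD of 3 libraries. In Nfkbia, Nfkbiz, Tnfaip3 and Nfkb2 aged replicates 1 and 2 lie above the young mean and aged replicate 3 below it, while the aged libraries of Icam1 all lie above the young ones.

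Birc3 (chromosome 9, 7848699 to 7873186), which encodes the ubiquitin ligase cIAP2, held 46.6, 33.9 and 46.5 CPM in the young and 43.3, 44.3 and 42.0 CPM in the aged libraries. The aged libraries lay within the range of the young ones, of which replicate 2 was lowest as for Relb (fold 1.02, interval 0.845 to 1.23, edgeR adjusted p = 0.975). Tnfaip2 (chromosome 12, 111442469 to 111455018), a gene induced by tumour necrosis factor that is also known from M cells, the antigen-sampling cells over lymphoid follicles, was barely detected. Its libraries held between 19 and 44 counts, or 0.478, 0.473 and 1.06 CPM in the young and 0.528, 0.526 and 0.339 CPM in the aged libraries, with young replicate 3 apart from the other 5. Its fold of 0.699 had an interval of 0.375 to 1.31 (edgeR adjusted p = 0.822), which spans both directions, and its exons overlap those of Gm40578 on the other strand, not used here. Of 12 M cell genes 10 were tested and 0 called by the edgeR test, the list summed to 426 to 566 CPM in the young and 473 to 562 CPM in the aged libraries, and Gp2, a defining M cell gene, was at 0 counts throughout.

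The members shared their lowest aged library. Aged replicate 3 was the lowest of the 3 aged libraries in 10 of 10 members, a pattern chosen after the values were seen, where it was the lowest in 37.4% of all tested genes. The count was 10 of 10 by each of the 3 other scalings as well (RLE factors, upper quartile factors and library totals). The order was not particular to the members. Among tested genes of the pathway lists described below, it held in 6 of 7 other IkB family genes with Rel and 6 of 8 ligands. It also held in 12 of 18 negative regulators, 25 of 36 reported targets, 14 of 28 kinases and adaptors and 9 of 16 receptors. The mean of aged replicates 1 and 2 stood 1.98-fold above aged replicate 3 in Icam1, 1.92-fold in Tnfaip3, 1.60-fold in Nfkbiz, 1.57-fold in Nfkbia, 1.56-fold in the barely detected Tnfaip2 and 1.45-fold in Nfkb2, and by less than 1.12-fold in Nfkb1, Rela, Relb and Birc3. Aged replicate 3 also had the lowest mitochondrial share of the aged libraries, 1.54% against 2.88 and 2.04%. It lay within the range of the young libraries, whose share also fell from replicate 1 to 3 (3.69, 2.07 and 1.48%). Young replicate 3 was the lowest young library in Nfkbia, Nfkbiz, Tnfaip3 and Nfkb1, and in no other member. Young and aged libraries alternate in the order of deposit. Handling in pairs or batches is not stated by the labels and was not tested. The part of RNA quality in the order of the aged libraries was not tested.

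The spread on the log2 scale was wider in aged than in young libraries in 6 of 10 members, against 44.9% of all tested genes. The SD of log2 CPM went from 0.0587 in young to 0.584 in aged libraries for Icam1, from 0.0890 to 0.378 for Nfkbia and from 0.0698 to 0.320 for Nfkb2. It went the other way in Nfkb1, Relb, Tnfaip2 and Birc3. With 3 libraries a group these SDs are themselves imprecise, and the difference in spread was not tested.

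**Figure D4:**
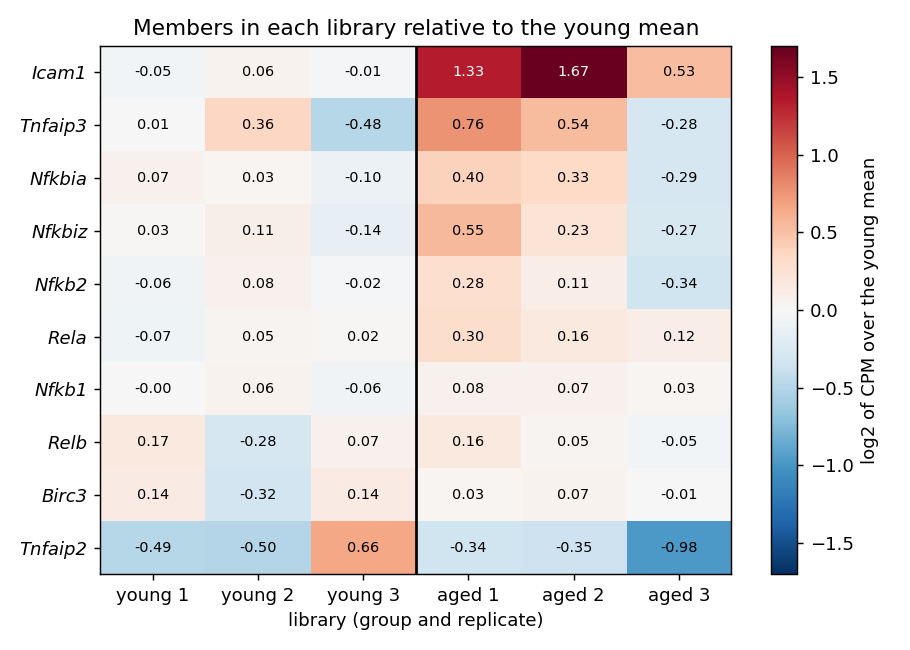
Log2 of each library's CPM over the young mean for each member (red above, blue below, numbers in the cells), with young libraries left and aged libraries right of the line. In aged replicate 3, 6 members that were above the young mean in aged replicates 1 and 2 lie below it, Tnfaip3, Nfkbia, Nfkbiz and Nfkb2 at -0.27 to -0.34, Relb at -0.045 and Birc3 at -0.013.

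Deviations from the group mean were compared between members over the 6 libraries, as a description. Nfkb2 and Nfkbiz deviated together (Pearson r = 0.96), as did Nfkbia and Nfkbiz (0.95), Nfkb2 and Nfkbia (0.94), and Nfkbiz and Tnfaip3 (0.92). Each of these genes deviated most in aged replicate 3, Nfkb2 by -0.36, Nfkbia by -0.43, Nfkbiz by -0.44 and Tnfaip3 by -0.62. These values therefore rest to a large part on 1 library. In the young libraries Nfkbiz and Tnfaip3 ran in the same order, while the other pairs named so far did not. The closest partner of Relb was Birc3 (0.92), and Nfkb1 and Birc3 went in opposite directions (-0.75). Of the 45 pairs 35 were above 0 and 11 above 0.8, with a median of 0.41. Pairs of other genes were not counted beside them, and all points share the same 6 libraries and their scaling.

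Over the 6 libraries the genes most like Icam1 in log2 CPM, among 9971 with a mean of at least 5 CPM, were Psmb8 (r = 0.99), an immunoproteasome subunit gene with 72.9 ± 6.08 CPM (young) and 289.8 ± 146 CPM (aged), and Cnp (0.99). Those most like Rela were Cflar (0.99), which encodes an inhibitor of death receptor signals, and Ncln (0.99). For Nfkbia they were Gtf2h5 (0.99) and Ube2d3 (0.98), for Nfkbiz the transmembrane mucin gene Muc13 and Trim7 (0.98 each), and for Tnfaip3 the homeobox gene Tgif1 and the microRNA gene Mir5125 (0.99 each). For Nfkb1 they were Ppargc1b and Ap1s3 (0.99 each), for Nfkb2 Pank4 (0.996) and Acrbp (0.99), for Relb Zcchc4 (0.99) and Mzt2 (0.98), for Birc3 Trit1 and Dcp1b (0.98 each), and for Tnfaip2 Arhgef3 (0.998) and F8a (0.996). These are the highest of many values over few libraries and say nothing of shared control.

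The rest of the pathway was read from 6 lists with 139 distinct genes, of which 113 were tested. By the edgeR test 5 of them rose in aged mice and 0 fell, 4.42% called higher beside 0.623% of all tested genes. The lists were chosen with earlier results of these data known, so this share is a description and not a test of the pathway. These were Tlr1, Nlrc5, Tap1, Irf1 and Psmb9, of which the last 4 are also on the interferon-gamma list. The groups did not overlap, with aged libraries higher, in 21 of the 113 and lower in 2, against 6.3 and 7.49% of all tested genes. The median log2 fold change was 0.11 and 87 of 113 were above 0, beside 0.0065 and 51.8% over all tested genes.

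Tlr1, a receptor of bacterial lipopeptides that works in pairs with the Tlr2 product, rose from 6.79 ± 0.774 to 20.0 ± 4.13 CPM (SD, n = 3 each, log2 fold change 1.55 ± 0.17, SE, edgeR adjusted p = 0.00467). Its libraries held 7.03, 7.42 and 5.93 CPM in the young and 19.7, 24.3 and 16.1 CPM in the aged mice. It was the only called gene of 16 tested receptors, and Tlr2 held 7.96, 7.32 and 8.98 CPM in the young and 12.7, 10.4 and 7.11 CPM in the aged libraries.

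Of 14 ligand genes 8 were tested and 0 called by the edgeR test, with 2 at an unadjusted p below 0.05, beside 9.23% of all tested genes. Tnf, the classical inducer of the pathway, held 12.8, 11.8 and 12.2 CPM in the young and 38.7, 36.6 and 15.9 CPM in the aged libraries. All aged libraries were higher, with aged replicate 3 nearest to the young ones as for Icam1 (fold 2.48, edgeR adjusted p = 0.131). Tnfsf10, which encodes the death ligand TRAIL, held 88.1, 84.2 and 75.0 CPM in the young and 99.7, 127 and 108 CPM in the aged libraries, again without overlap (fold 1.35, adjusted p = 0.102). Il1a, Tnfsf11, Tnfsf14 and Cd40lg held 0 counts in every library, which allows up to 0.072 CPM.

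Of 28 tested kinase and adaptor genes 0 were called by the edgeR test and 5 had an unadjusted p below 0.05 (9.23% of all tested genes did). The groups did not overlap in 6, with aged libraries higher in each, against 6.3% of all tested genes. Of the 28 log2 fold changes 24 were above 0 with a median of 0.089, beside 51.8% and 0.0065 over all tested genes. The most abundant were Rbck1, a subunit gene of the linear ubiquitin ligase complex, at 178 ± 9.41 CPM in the young and 196 ± 8.55 CPM in the aged libraries (adjusted p = 0.662), and Irak1, a kinase of Toll-like receptor signalling, at 132 ± 3.08 and 138 ± 5.02 CPM (adjusted p = 0.882). The other IkB family genes, with Rel, had 7 of 7 log2 fold changes above 0 and 0 calls or unadjusted p-values below 0.05 in the edgeR test. Bcl3, an atypical IkB gene, held 79.6, 105 and 85.4 CPM in the young and 123, 109 and 89.5 CPM in the aged libraries, and Nfkbib, the gene of IkB beta, 36.7, 38.7 and 41.5 and 50.9, 47.2 and 37.7 CPM. In both, aged replicate 1 was the highest of the 6 and aged replicate 3 lay within the young range. Nfkbid, the gene of a further nuclear IkB, stood at 36.5 ± 11.9 CPM (young) and 46.3 ± 13.4 CPM (aged), and Rel, the remaining subunit gene of the family, 14.4 ± 4.37 and 16.6 ± 2.70 CPM (mean ± SD of 3), with overlap between the ages in each.

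Among 18 tested negative regulators Nlrc5, better known as the class I transactivator, rose from 2.03 ± 1.18 to 31.4 ± 15.9 CPM (edgeR adjusted p = 0.0421), and the other 17 did not pass. Of 36 tested reported targets 3 rose. These were the peptide transporter gene Tap1 (2.94-fold, adjusted p = 0.00331), the transcription factor gene Irf1, from 213 ± 26.2 to 334 ± 17.2 CPM (adjusted p = 0.013), and the immunoproteasome gene Psmb9 (2.52-fold, adjusted p = 0.0433). At an unadjusted p below 0.05 (edgeR) there were 9 of the 36, beside 9.23% of all tested genes. The groups did not overlap in 7 with the aged higher and in 0 with the aged lower, against 6.3 and 7.49%. Of the 36 log2 fold changes 27 were above 0, beside 51.8%. Named after their values were seen, Duox2 stood at 2.26-fold and Csf2 at 0.573-fold (edgeR adjusted p = 0.456 and 0.636). Without aged replicate 3 there were 8 pathway genes called higher, without young replicate 2 there were 3, and without any other single library 2. The median log2 fold change of the reported targets moved to 0.055 when aged replicate 1 was left out and to 0.085 when it was aged replicate 2, and dropping aged replicate 3 gave 0.28. The interferon-gamma list, which also holds Nlrc5, Tap1, Irf1 and Psmb9, had 15 of 21 tested genes called higher, beside 0.623% of all tested genes. Its median log2 fold change was 1.56, and that of the reported NF-kB targets was 0.18. Both lists were chosen with earlier results of these data known, so these values are a description only. No test was made of the gap between the lists.

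**Figure D5:**
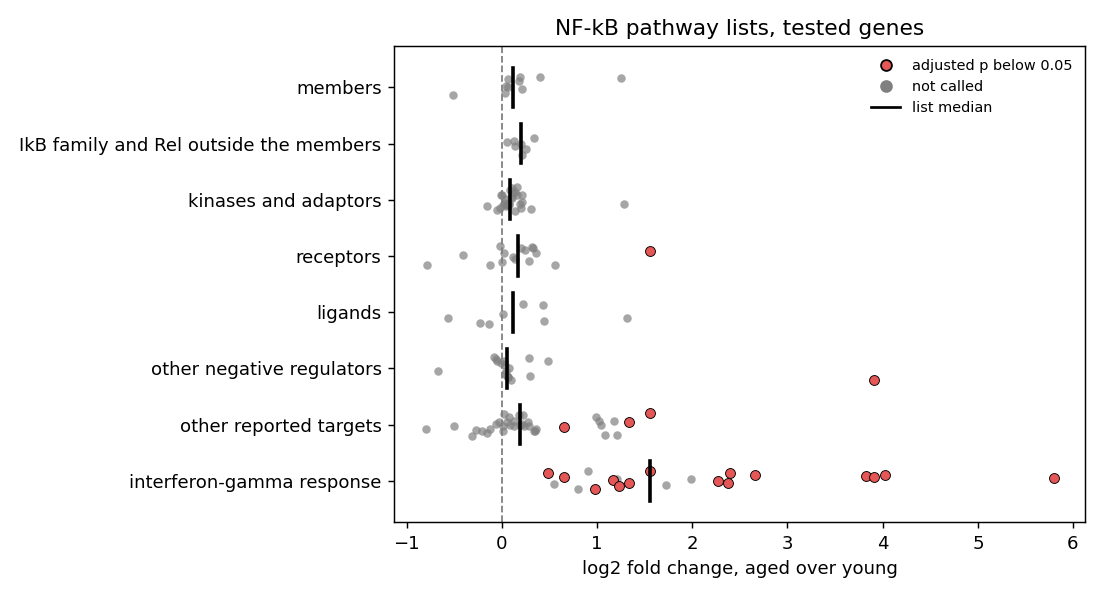
Log2 fold change (aged over young) of every tested gene in the members' list, 6 further lists of the NF-kB pathway and the interferon-gamma list, with called genes in red and list medians as black lines. The medians of the NF-kB lists lie between 0.048 and 0.20, and that of the interferon-gamma list lies at 1.56.

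Genes that respond to tissue dissociation were measured beside the members. Of 23 immediate early and heat shock genes, all tested, 0 were called by the edgeR test and 2 had an unadjusted p below 0.05, a share near that of all tested genes (9.23%). Their sum was 7122 to 8597 CPM in the young libraries and 9262, 7754 and 8441 CPM in aged replicates 1 to 3. Aged replicate 3 was the lowest aged library in 10 of the 23, where it was the lowest in 37.4% of all tested genes. Fos, the most abundant, held 1034, 1134 and 1001 CPM in the young and 1320.4, 1068 and 1309 CPM in the aged libraries, and Jun held 882, 965 and 1140.0 and 1199.6, 929 and 1168 CPM, with aged replicate 2 lowest of the aged in both. In Egr1 (1208, 1094 and 1008 CPM in aged replicates 1 to 3) and Junb (608, 520.3 and 493 CPM), named after their values were seen, aged replicate 3 was lowest. The part of dissociation in the members' values was not tested.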

How the data were processed

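RNA-seq counts of sorted small intestinal epithelium from 3 young and 3 aged mice were used. The deposited counts are whole numbers with unequal library totals, left unnormalized by the authors. The submitters' processing notes name GRCm38, STAR, HISAT2 2.1.0, featureCounts 1.6.4 and DESeq2 1.28.1 among other tools, with no role; for the annotation release and strand setting the sources used here give nothing, and overlapping genes have uncertain counts. Each column was tied to a sample by its title. Replicate numbers are names in order of deposit, and the labels do not state whether libraries were handled in pairs.

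Genes passing filterByExpr (minimum count 10) were scaled with TMM factors and tested with edgeR 4.0.16 (glmQLFit, robust; R 4.3.3), age as the only term, Benjamini-Hochberg over all 14923 genes, threshold 0.05. Standard errors are the log2 fold change over the square root of F, and 95% intervals use the fit's total degrees of freedom. CPM are mean ± SD of 3 libraries. Alternatives were DESeq2 1.42.0, limma-voom 3.58.1, 1 surrogate variable (sva 3.50.0), other factors and filters, non-robust estimation and leaving out each library. On counts simulated for aged against young over 14923 genes 38 of 50 genes with a 2-fold and 29 of 50 with a 1.5-fold change were recovered, with 14 false among 164 calls. Positions and lengths are from GENCODE M21 (45229 of 46078 IDs found).

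All members and lists were chosen with earlier results of these data known. The text names all members, up to 4 called genes per list or else its 2 most abundant, the 2 genes most like a member, and Ptprc and Epcam; Itgam, Cd14, Tlr2, genes at 0 and others were named after their values were seen. The study's organoid, single-cell and chromatin data were not used here.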

Additional observations from a re-analysis of the deposited data

How the results depend on the processing

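The number of genes called higher in aged libraries was 93, and 206 with DESeq2, 168 without a filter and 35 to 135 without 1 library; that of genes called lower was 117, and 276, 245, 67 with a filter of 1 CPM in 3 libraries and 30 to 135 without 1 library. Among the members, 1 was called higher with DESeq2, without a filter and without aged replicate 3, always Icam1 (adjusted p = 0.000147, 0.00471 and 0.00495), and 0 with each of the other 12 alternatives, so the count without 1 library was 0 to 1. Pathway genes called higher numbered 5, 10 with DESeq2 and 2 to 8 without 1 library. The log2 fold change of Nfkb2 was -0.10 with 1 surrogate variable and ran from -0.095 to 0.20 without 1 library, that of Relb from -0.071 to 0.15 and that of Birc3 from -0.11 to 0.10; the other 7 members kept their sign in every fit. With the longest transcript as length 5 of 10 members kept their rank of level. The cause of these shifts was not tested. No paired analysis was made because the labels give no replicate numbers and state no pairing. Tnfaip2 rests on 19 to 44 counts a library, and each group has 3 libraries.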
